A study of Homo sapiens with 9 samples.

Results

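The immediate early transcription factors FOS, FOSL1, JUN, JUNB, ATF3, EGR1, KLF2, KLF4, KLF6 and NR4A2 were followed in SaOS2 cells before, during and after induction of an antisense RNA to APC. The SaOS2 line was grown from a human bone tumour and keeps traits of osteoblasts, and APC is the scaffold protein that helps to mark beta-catenin for degradation. Every probe annotated with 1 of these 10 gene symbols was taken, which gave 14 of the 47322 probes on the bead array. Of these, 12 were detected on all 9 arrays and covered all 10 genes, out of 12245 genes measured in all. The control group held 3 arrays of untreated cells, for which the labels do not say whether they carried the construct. The doxycycline group held 3 arrays of cells transfected with the inducible construct and kept for 3 days in 1 µg/ml of the drug, which turns the construct on. The recovery group held 3 arrays of cells treated in the same way and then grown for 3 more days in drug-free medium. All cultures were grown with G418 and hygromycin, and the treated sets were harvested with trypsin. No group received doxycycline without the construct, so an effect of the drug and an effect of the antisense RNA cannot be told apart. The recovered cells had also been in culture longer than the treated ones, and this cannot be told apart from withdrawal. The sources used here do not say how many clones the line came from, or whether replicates were separate cultures, so the error behind each p-value is that between arrays of a group and may be technical only.

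Immediate early genes are switched on within minutes by growth factors, cytokines and stress, without the need for new protein synthesis, and most of their transcripts are short-lived. FOS and FOSL1 (Fra-1) cannot pair with themselves and bind DNA as AP-1, in partnership with JUN or JUNB, through a leucine zipper. ATF3 is a related leucine zipper factor of the stress response, EGR1 and the KLF proteins bind GC-rich DNA through zinc fingers, and NR4A2 (NURR1) is an orphan nuclear receptor that needs no known ligand. In mouse, excess Fos in bone gives rise to osteosarcomas, and Fra-1 promotes bone matrix formation.

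Between 20141 and 21317 probes were detected per array at a detection p under 0.05. Levels are on the log2 scale after background correction and normalization. Each difference is given on the same scale with its standard error, as fitted in limma. The p-values carry the Benjamini-Hochberg adjustment over all 22039 probes kept, and a probe was called at an adjusted p under 0.05. Doxycycline replicate 2 stood apart on the second principal component of the 9 arrays, at -66.3 where the other 8 arrays lay between -15.1 and 15.2. Over all probes the median standard deviation within a group was 0.23 in the doxycycline arrays and 0.13 in both other groups. For the 12 member probes it was 0.20 in doxycycline, 0.12 in control and 0.11 in recovery. Of 10 osteoblast markers 8 were detected on all arrays, among them RUNX2, SP7, ALPL and IBSP, and SPP1 was detected on none. BGLAP was detected on too few arrays to be kept. In recovery against control 1 of the 8, SPARC, was called higher (0.90 ± 0.17, limma adjusted p = 0.00345), and 0 were called lower.

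The promoters of 5 members are shown. They are those of the members that fell (FOS, KLF2), of a pair that rose (JUNB, KLF4), and of EGR1. The window of EGR1 holds the serum-responsive elements for which the class is known. Each window runs from 250 bases before to 50 bases after the annotated start of the gene, read 5′ to 3′ on the strand of the gene, from RefSeq on GRCh38.p14. The windows lie at chr14:75278578-75278877 on the plus strand for FOS, chr19:12791236-12791535 on the plus strand for JUNB, chr5:138465229-138465528 on the plus strand for EGR1, chr19:16324576-16324875 on the plus strand for KLF2 and chr9:107489720-107490019 on the minus strand for KLF4. Capitals mark the CArG box (the serum response factor motif), the STAT motif TTCNNNGAA, the core TGACG of a cyclic AMP response element, and the EGR motif GCGNGGGCG, searched on both strands.
FOS: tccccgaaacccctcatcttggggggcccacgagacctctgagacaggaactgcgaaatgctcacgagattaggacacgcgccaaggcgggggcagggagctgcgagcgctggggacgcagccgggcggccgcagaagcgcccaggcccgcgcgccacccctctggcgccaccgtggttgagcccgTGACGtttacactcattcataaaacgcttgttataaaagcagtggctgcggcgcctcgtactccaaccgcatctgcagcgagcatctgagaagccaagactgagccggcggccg
JUNB: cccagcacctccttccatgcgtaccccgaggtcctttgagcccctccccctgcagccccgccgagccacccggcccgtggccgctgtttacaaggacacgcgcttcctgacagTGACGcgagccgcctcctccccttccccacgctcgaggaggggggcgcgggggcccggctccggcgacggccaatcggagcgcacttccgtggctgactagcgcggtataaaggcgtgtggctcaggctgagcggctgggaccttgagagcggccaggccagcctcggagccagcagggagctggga
EGR1: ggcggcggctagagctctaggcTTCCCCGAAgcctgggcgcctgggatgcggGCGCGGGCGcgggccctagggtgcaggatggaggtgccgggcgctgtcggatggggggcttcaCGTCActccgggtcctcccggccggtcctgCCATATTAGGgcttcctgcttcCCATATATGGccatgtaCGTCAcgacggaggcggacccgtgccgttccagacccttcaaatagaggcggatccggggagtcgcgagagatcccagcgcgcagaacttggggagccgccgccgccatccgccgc
KLF2: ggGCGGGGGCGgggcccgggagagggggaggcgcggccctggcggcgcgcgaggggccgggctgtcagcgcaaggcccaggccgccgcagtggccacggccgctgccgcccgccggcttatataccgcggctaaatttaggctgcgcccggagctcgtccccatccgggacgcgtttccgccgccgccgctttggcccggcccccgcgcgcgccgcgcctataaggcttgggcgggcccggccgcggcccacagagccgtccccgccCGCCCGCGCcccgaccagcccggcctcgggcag
KLF4: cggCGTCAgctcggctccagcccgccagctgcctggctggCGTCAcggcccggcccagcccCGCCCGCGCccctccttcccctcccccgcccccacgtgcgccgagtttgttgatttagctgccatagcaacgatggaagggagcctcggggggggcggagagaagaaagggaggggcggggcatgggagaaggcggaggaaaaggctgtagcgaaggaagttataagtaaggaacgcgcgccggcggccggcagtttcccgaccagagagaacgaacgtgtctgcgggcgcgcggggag

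RefSeq windows were found for 8 of the 10 genes, 9 windows in all, of which ATF3 has more than 1. A CArG box stood in 1 of the 9, that of EGR1, which holds it at positions -105 and -83 from the start. Across all 35116 windows 1.29% hold one. Bases more than 250 before the start were not searched, so a gene with no CArG box in its window may have one farther upstream. The core TGACG stood in 5 of 9 windows (24.6% of all windows), at position -64 in FOS and -137 in JUNB, and the EGR motif in 4 of 9 (9.43%), at -248 and 18 in KLF2 and at -189 in KLF4. The complete element TGACGTCA (1.85% of all windows), the AP-1 motif TGACTCA (4.95%) and the KLF motif CCACACCC (3.28%) were in none of the 9. The STAT motif stood in 1, that of EGR1 (7.66%). The EGR motif overlapped the GC box GGGCGG in KLF2, KLF4 and KLF6, and the GC box stood in 6 of 9 windows (45.0%). FOS and KLF2, which fell together, shared no motif of this search other than the GC box.

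**Figure D1:**
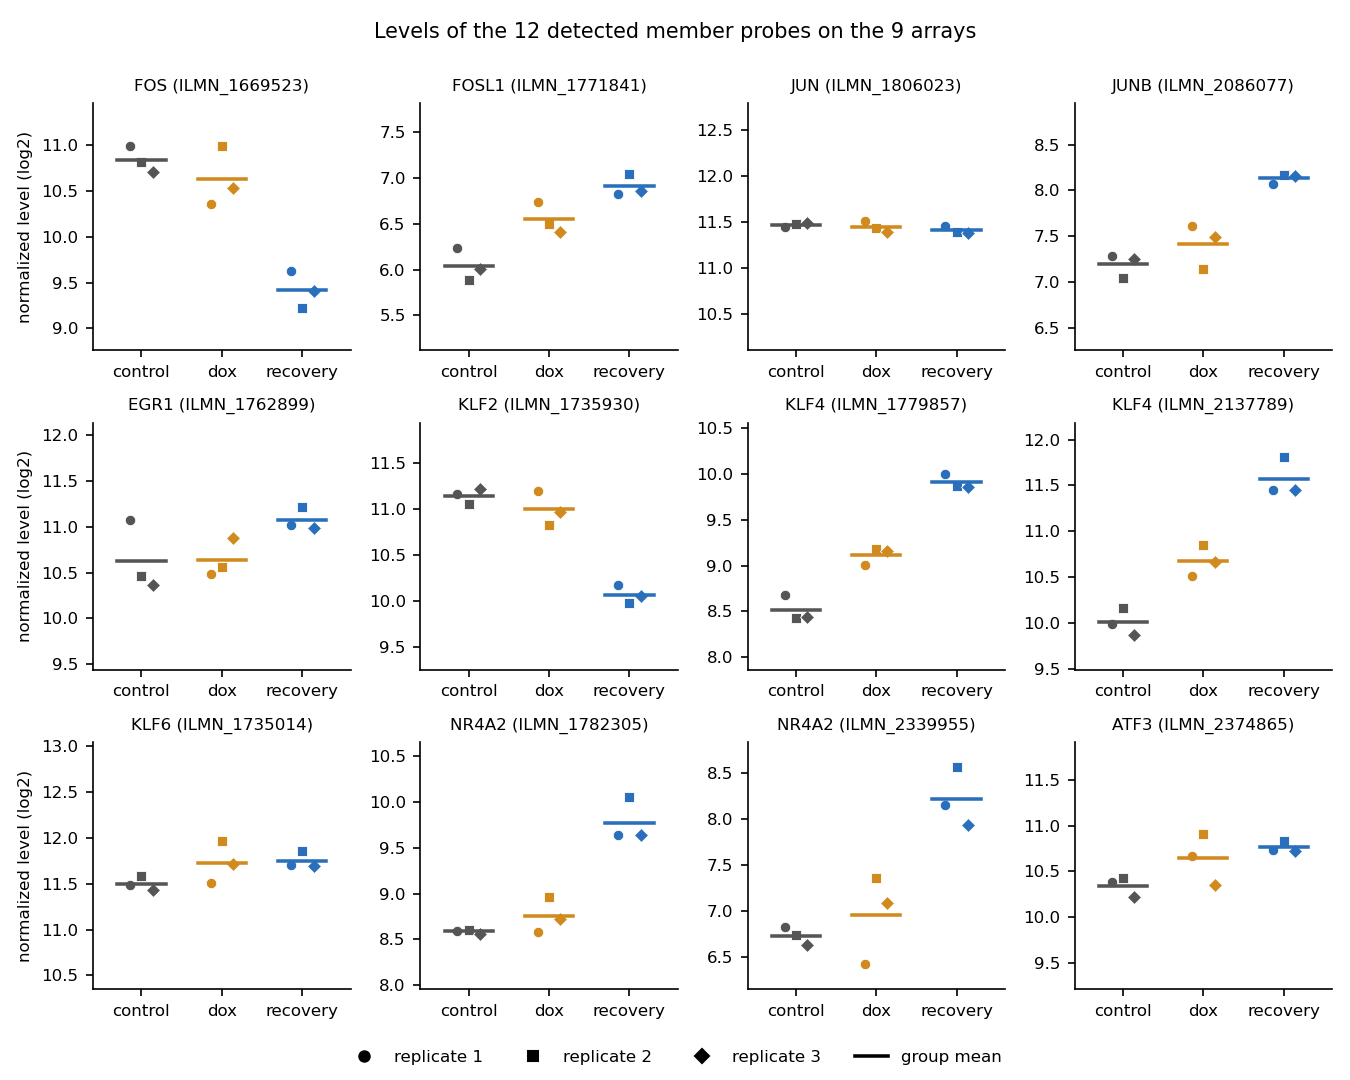
Normalized level (log2) of each of the 12 detected member probes on the 9 arrays, with points for the 3 replicates of each group and a line at the group mean. Every panel spans the same range of log2 units. Recovery arrays lie below all others for FOS and KLF2, above all others for FOSL1, JUNB, KLF4 and NR4A2, and level with them for JUN.

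FOS, the founding member of the AP-1 family, had no called difference under doxycycline and was lower after withdrawal. Its level on the control arrays was 10.99, 10.82 and 10.70, on the doxycycline arrays 10.36, 10.99 and 10.53, and on the recovery arrays 9.63, 9.23 and 9.41. The recovery arrays lay below all 6 others. Doxycycline replicate 2 lay just under the highest control, while doxycycline replicates 1 and 3 lay below all controls. Recovery differed from control by -1.42 ± 0.18 (limma adjusted p = 0.000231, 2.67-fold lower) and from doxycycline by -1.21 ± 0.18 (limma adjusted p = 0.00113, 2.31-fold lower). Doxycycline differed from control by -0.21 ± 0.18 (limma adjusted p = 0.50, 95% interval -0.60 to 0.18), without doxycycline replicate 2 by -0.39 ± 0.15 (limma adjusted p = 0.23), and without replicate 1 by -0.08 ± 0.18 (limma adjusted p = 0.80). In RNA from whole cultures, fewer cells that carry a transcript and less of it per cell cannot be told apart.

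FOSL1, the other Fos-family member, moved the opposite way. Control arrays read 6.23, 5.89 and 6.01, doxycycline arrays 6.74, 6.50 and 6.42, and recovery arrays 6.83, 7.05 and 6.86, so the groups were in the order control, doxycycline, recovery with no array out of place. FOSL1 was 0.87 ± 0.14 above control in recovery (limma adjusted p = 0.00168, 1.82-fold). Neither step alone passed: doxycycline was 0.51 ± 0.14 above control (limma adjusted p = 0.090, 95% interval 0.20 to 0.82) and recovery 0.36 ± 0.14 above doxycycline (limma adjusted p = 0.12). Without doxycycline replicate 1 the second step was called, at 0.45 ± 0.15 (limma adjusted p = 0.0497).

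JUN, the partner that Fos proteins need in AP-1, had no called difference. Its mean level was 11.47 ± 0.02 (SD, n = 3) on the control arrays, 11.44 ± 0.07 on the doxycycline arrays and 11.41 ± 0.04 on the recovery arrays. The 9 arrays ran from 11.38 to 11.52, and all groups overlapped. Recovery differed from control by -0.06 ± 0.11, with a 95% interval of -0.31 to 0.19 (limma adjusted p = 0.79), so a fall or rise of the size seen for FOS lies outside the interval. JUNB, the Jun-family member that competes with JUN for partners, rose. Its control arrays read 7.29, 7.04 and 7.25, its doxycycline arrays 7.61, 7.15 and 7.49, and its recovery arrays 8.07, 8.16 and 8.16. The recovery arrays lay above all others and within 0.09 of each other, while doxycycline and control overlapped. JUNB was 0.94 ± 0.14 higher in recovery than in control (limma adjusted p = 0.00107, 1.92-fold) and 0.72 ± 0.14 higher than in doxycycline (limma adjusted p = 0.00759, 1.64-fold).

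ATF3, a stress-induced factor that pairs with Jun proteins, was read by 1 detected probe (ILMN_2374865). Control arrays read 10.38, 10.43 and 10.22, doxycycline arrays 10.67, 10.91 and 10.35, and recovery arrays 10.74, 10.83 and 10.72. All 3 recovery arrays were above all controls, and doxycycline overlapped both groups. No difference was called on all 9 arrays, with 0.42 ± 0.15 for recovery against control (limma adjusted p = 0.084, 95% interval 0.09 to 0.75) and 0.30 ± 0.15 for doxycycline against control (limma adjusted p = 0.26). The latter was 0.17 without doxycycline replicate 2 and 0.45 without replicate 3, not called in either. Without doxycycline replicate 2, recovery against control was called at 0.42 ± 0.12 (limma adjusted p = 0.022). The other ATF3 probes were not well above background: ILMN_1661109 was detected on 0 of 9 arrays, and ILMN_1791346 on 1, doxycycline replicate 2.

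EGR1, the early growth response factor, gave no called difference. Control arrays read 11.07, 10.46 and 10.36, doxycycline arrays 10.48, 10.56 and 10.88, and recovery arrays 11.02, 11.22 and 10.99. Control replicate 1 stood within the recovery range and the other 2 controls below it. Recovery was 0.44 ± 0.19 above control (limma adjusted p = 0.14, 95% interval 0.03 to 0.86) and 0.44 ± 0.19 above doxycycline (limma adjusted p = 0.16). Without control replicate 1 the difference of recovery from control was 0.67 ± 0.16 and was called (limma adjusted p = 0.0287).

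KLF4, known as a factor for reprogramming cells to pluripotency and as a regulator of differentiation, rose after withdrawal at both of its probes, and at 1 of them also under doxycycline. At ILMN_2137789 the control arrays read 9.99, 10.16 and 9.86, the doxycycline arrays 10.51, 10.85 and 10.67, and the recovery arrays 11.45, 11.81 and 11.45. At ILMN_1779857 they read 8.68, 8.43 and 8.44, then 9.01, 9.19 and 9.16, then 10.00, 9.87 and 9.86. No array of any group reached into the next group at either probe. Recovery was above control by 1.57 ± 0.15 (limma adjusted p = 3e-05, 2.96-fold) and 1.39 ± 0.13 (limma adjusted p = 1.88e-05, 2.63-fold). It was above doxycycline by 0.90 ± 0.15 (limma adjusted p = 0.0029, 1.86-fold) and 0.79 ± 0.13 (limma adjusted p = 0.00208, 1.73-fold). The step from control to doxycycline was called at ILMN_1779857 (0.60 ± 0.13, limma adjusted p = 0.045, 1.52-fold) and missed the threshold at ILMN_2137789 (0.67 ± 0.15, limma adjusted p = 0.054, 95% interval 0.34 to 1.00).

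KLF2, a family member known for keeping endothelial cells and T lymphocytes quiescent, ran the other way from KLF4 and alongside FOS. Control arrays read 11.16, 11.06 and 11.22, doxycycline arrays 11.20, 10.82 and 10.97, and recovery arrays 10.17, 9.97 and 10.05. The recovery arrays were the 3 lowest and doxycycline overlapped control. Recovery was -1.08 ± 0.13 from control (limma adjusted p = 0.000224, 2.11-fold lower) and -0.93 ± 0.13 from doxycycline (limma adjusted p = 0.00101, 1.91-fold lower), while doxycycline against control gave -0.15 ± 0.13 (limma adjusted p = 0.53, 95% interval -0.44 to 0.15). That last difference was -0.06 without doxycycline replicate 2 and -0.25 without replicate 1, not called in either. KLF6, a widely expressed member of the same family, had no called difference. Its mean level was 11.50 ± 0.08 (SD, n = 3) on the control arrays, 11.73 ± 0.23 on the doxycycline arrays and 11.75 ± 0.09 on the recovery arrays, and its 3 recovery arrays, from 11.69 to 11.86, lay above the highest control at 11.59. The difference of recovery from control was 0.25 ± 0.14 (limma adjusted p = 0.27, 95% interval -0.06 to 0.56).

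NR4A2, induced by parathyroid hormone in mouse osteoblasts, rose after withdrawal at both probes. At ILMN_1782305 the control arrays read 8.59, 8.61 and 8.56, the doxycycline arrays 8.59, 8.96 and 8.73, and the recovery arrays 9.64, 10.05 and 9.64. At ILMN_2339955 they read 6.83, 6.74 and 6.63, then 6.42, 7.36 and 7.09, then 8.15, 8.57 and 7.94. The recovery arrays were above all others at both probes, and doxycycline overlapped control, replicate 2 being its highest array and replicate 1 its lowest. Recovery was above control by 1.19 ± 0.15 (limma adjusted p = 0.00026, 2.28-fold) and 1.49 ± 0.23 (limma adjusted p = 0.000963, 2.81-fold). It was above doxycycline by 1.02 ± 0.15 (limma adjusted p = 0.00122) and 1.26 ± 0.23 (limma adjusted p = 0.00396). Doxycycline against control was 0.17 ± 0.15 (limma adjusted p = 0.52) and 0.23 ± 0.23 (limma adjusted p = 0.57), and it was 0.07 and 0.02 without doxycycline replicate 2, and 0.26 and 0.49 without replicate 1.

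**Figure D2:**
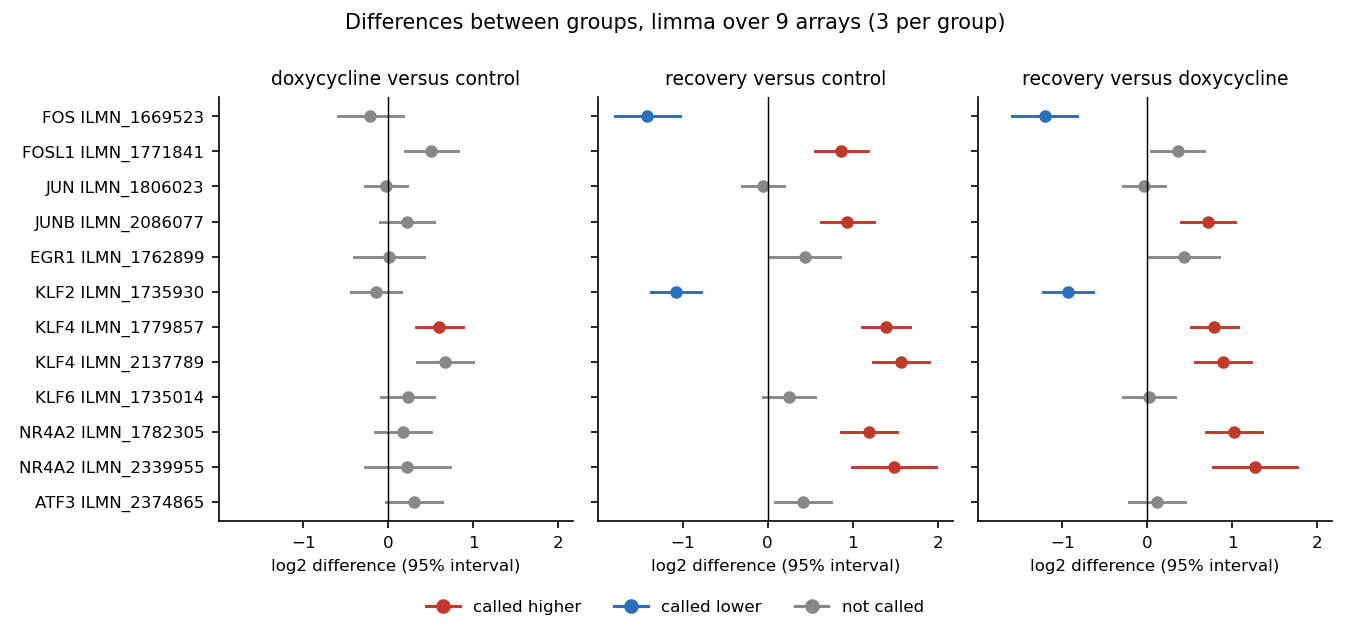
Log2 difference of each member probe with its 95% interval in the 3 comparisons, from limma over 9 arrays with 3 per group. Coloured points were called, and in recovery against control they run from -1.42 for FOS to 1.57 for KLF4.

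What 3 days of induction did was read from doxycycline against control. KLF4 was the only member called, at 1 of its 2 probes, and FOSL1, JUNB, EGR1, FOS, JUN, KLF2, KLF6, NR4A2 and ATF3 were not. That is 1 of 12 member probes, where 1.41% of all 22039 probes were called, 1.02% higher and 0.386% lower. None of the 12 was called with a log2 difference of 1 or more, against 0.549% of all probes. At an unadjusted p under 0.05 it was 3 of 12, the FOSL1 probe and both KLF4 probes, against 22.4% of all probes, and the same 3 had groups that did not overlap, all higher. Over all probes the groups did not overlap for 25.5%, with 12.6% higher and 12.9% lower. The median difference of the 12 was 0.22, against -0.01 over all probes. The call at KLF4 rested on every array but 1. With limma, 0 member probes were called without any of the 3 control or 3 recovery arrays or without doxycycline replicate 2 or 3, and 2 were called, both at KLF4, without doxycycline replicate 1. In that last fit 3940 of all 21835 probes were called. Without replicate 2 KLF4 was at 0.57 ± 0.12 (limma adjusted p = 0.060) and 0.58 ± 0.15 (limma adjusted p = 0.097).

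Recovery against control asked what was left or had arisen 3 days after withdrawal. FOSL1, JUNB, KLF4 and NR4A2 rose and FOS and KLF2 fell, 6 of the 10 genes. By probe, 6 of 12 were called higher and 2 lower, where 15.1% of all probes were called, 7.49% higher and 7.59% lower. Both probes of KLF4 and NR4A2 and those of FOS and KLF2 were called with a log2 difference of 1 or more, as were 3.39% of all probes. Groups did not overlap for 10 of 12, 8 higher and 2 lower, against 43.1% of all probes, 19.9% higher and 23.1% lower. The median difference was 0.66, against -0.03 over all probes, and the median size without regard to sign was 1.01, against 0.22. All 8 calls were kept in each of 9 fits that left out 1 array.

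Recovery against doxycycline asked what the 3 days after withdrawal changed. JUNB, KLF4 and NR4A2 rose and FOS and KLF2 fell. Of 12 probes 5 were called higher and 2 lower, against 12.7% of all probes, 6.34% higher and 6.33% lower. FOS and both probes of NR4A2 were called with a log2 difference of 1 or more, as were 2.52% of all probes. Groups did not overlap for 9 of 12, 7 higher and 2 lower, against 31.0% of all probes, 15.5% in each direction. Over all probes 1397 were called higher and 1394 lower, a split that median scaling in place of quantile normalization moved to 744 and 1192. Under that scaling the same 7 member probes were called in the same directions. These 7 calls held whichever single array was left out. The comparisons share arrays, so the differences from control and from doxycycline are not independent readings of the recovery level.

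**Figure D3:**
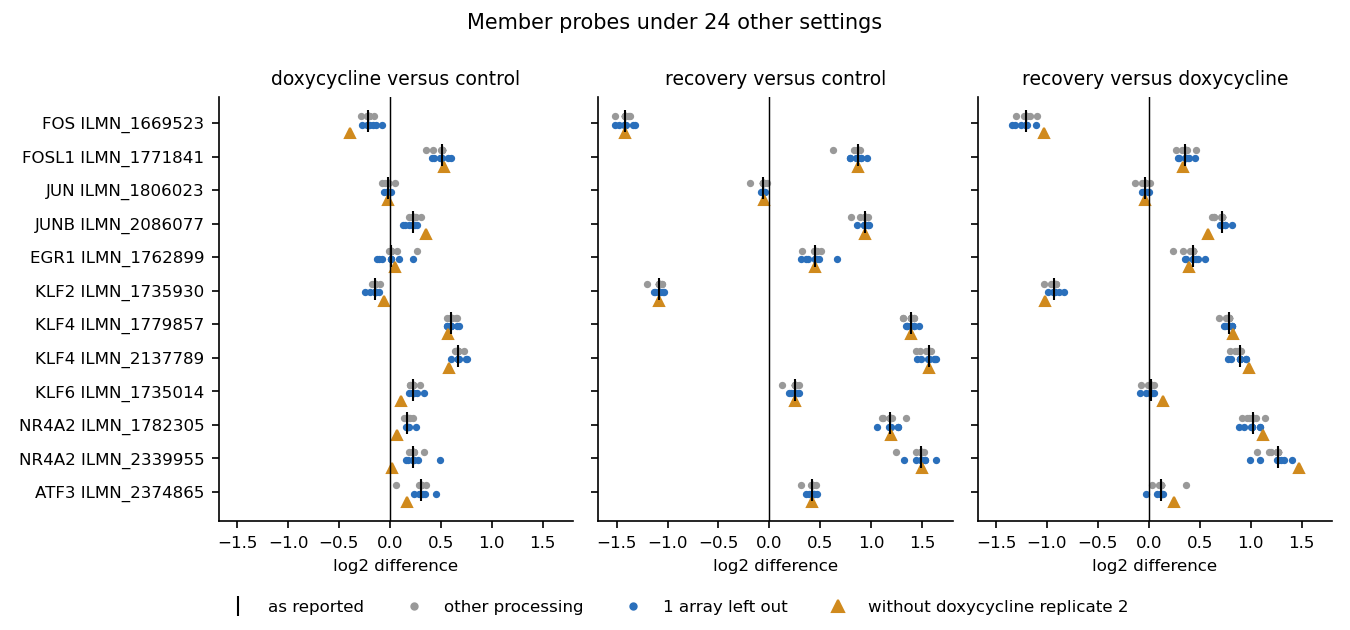
Log2 difference of each member probe as reported (bar), with 15 other ways of processing (grey), with 1 array left out (blue) and without doxycycline replicate 2 (triangle), for the 3 comparisons. FOS and KLF2 stay below 0 and FOSL1, JUNB, KLF4 and NR4A2 above 0 in every setting of both recovery comparisons. JUN, EGR1, KLF6 and ATF3 lie on both sides of 0 in at least 1 comparison.

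Relatives and neighbours of these genes were read from 7 lists, each gene by its brightest kept probe. The lists were chosen with earlier results of these data known, so their counts and medians are descriptions only. Of all 12245 genes read in this way, 1.50% were called in doxycycline against control, 1.28% higher and 0.220% lower. In recovery against control 16.4% were called, 8.76% higher and 7.68% lower, and in recovery against doxycycline 14.6%, 6.99% higher and 7.63% lower. The median difference over all genes was 0.01, -0.01 and -0.01. Calls over all probes also rose when doxycycline replicate 2 was left out. In recovery against control they went from 3322 of 22039 to 5628 of 21677, with 2637 higher and 2991 lower. In recovery against doxycycline they went from 2791 to 3398, with 1654 higher and 1744 lower. List counts given below for that fit stand against these wider counts.

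Of 12 AP-1 relatives 9 were measured. None was called under doxycycline, and 2 were higher and none lower in recovery against control. These were BATF2, an interferon-inducible leucine zipper factor, and BATF3, known for dendritic cell development. BATF2 was not detected on any control or doxycycline array and was at least 4.88-fold higher in recovery than in control. It passed the detection filter only through the recovery arrays, where it is high, so its call carries no weight of its own. Without any 1 recovery array it fell under the detection filter and had no test. BATF3 was 0.81 ± 0.19 higher (limma adjusted p = 0.013), a call that ended without control replicate 1 or recovery replicate 2. Against doxycycline 2 were higher, BATF2 (at least 4.89-fold) and BATF3 (0.63 ± 0.19, limma adjusted p = 0.047), and 2 lower. The call of BATF3 there ended in 7 of 9 fits without 1 array. Lower were FOSB, the closest relative of FOS (-1.15 ± 0.28, limma adjusted p = 0.020), and MAFG, a small Maf protein (-0.53 ± 0.15, limma adjusted p = 0.037). The call of FOSB ended without any 1 recovery array, and that of MAFG in 6 of 9 fits. The difference of FOSB from doxycycline, with doxycycline replicate 2 left out, was -0.71 ± 0.12 (limma adjusted p = 0.00278). That of doxycycline from control turned from 0.29 to -0.15 and was called in neither fit. FOSB stood at 8.54 in control, 8.83 in doxycycline and 7.68 in recovery, and its difference from control was -0.86 ± 0.28 (limma adjusted p = 0.061). Without doxycycline replicate 2 FOSB was called in that comparison (-0.86, limma adjusted p = 0.000213), 4 relatives were higher than control and 1 lower, and BATF3 and MAFG were not called against doxycycline.

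Of 17 EGR, KLF and NR4A relatives 10 were measured, and none was called under doxycycline at its brightest probe. For KLF10 that probe differed from control by -0.08 under doxycycline, while its kept probes ran from -0.29 to 0.89. In recovery against control none was higher and 2 were lower: KLF12, a repressor of the family (-1.16 ± 0.13, limma adjusted p = 0.000124), and KLF13 (-0.66 ± 0.14, limma adjusted p = 0.00791). Against doxycycline the same pair was lower, at -1.23 ± 0.13 and -0.75 ± 0.14 (limma adjusted p = 0.000144 and 0.00456). Higher there were KLF3 (0.66 ± 0.16, limma adjusted p = 0.017) and KLF10, the TGF-beta-inducible early gene (0.53 ± 0.15, limma adjusted p = 0.037). Other kept probes of KLF3 gave as little as 0.04, and those of KLF10 ran from -0.25 to 0.91. Their calls ended in 2 and 4 of 9 fits without 1 array. Without doxycycline replicate 2 the list had 2 genes higher and 3 lower than control.

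Of 29 other immediate early and early response genes 26 were measured. None was called under doxycycline, and in recovery against control 4 were higher and 1 lower, with a list median of 0.25. Higher were IER3, an early gene that limits cell death (0.74 ± 0.15, limma adjusted p = 0.00498), the survival factor MCL1 (0.68 ± 0.14, limma adjusted p = 0.008) CSRNP1 (0.52 ± 0.12, limma adjusted p = 0.013) and the phosphatase gene DUSP1 (0.44 ± 0.13, limma adjusted p = 0.044), and lower was GADD45A, a growth arrest gene (-0.56 ± 0.14, limma adjusted p = 0.020). CSRNP1 lost its call in 3 of 9 fits without 1 array (control replicate 2, recovery replicate 2 or 3) and GADD45A in 5 (any recovery array, control replicate 2 or 3). That of DUSP1 ended in 6. Without doxycycline replicate 2 the counts were 8 higher and 2 lower. Against doxycycline 3 were higher, PHLDA1 (0.73 ± 0.15, limma adjusted p = 0.00764; 0.16 at its other kept probe), NFIL3 (0.52 ± 0.15, limma adjusted p = 0.040) and IER3 (0.49 ± 0.15, limma adjusted p = 0.046). The calls of NFIL3 and IER3 ended in 7 and 8 of 9 fits without 1 array, among them that without doxycycline replicate 2, where 2 genes of the list were higher than in doxycycline and 1 lower.

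Of 25 kinases and factors upstream of these genes 17 were measured, and none was called under doxycycline. MRTFB, a coactivator of serum response factor, was lower in recovery than in control (-0.49 ± 0.13, limma adjusted p = 0.027), and none was higher. Against doxycycline the ribosomal S6 kinase gene RPS6KA3 (0.58 ± 0.13, limma adjusted p = 0.014) and ELK4, a ternary complex factor (0.57 ± 0.17, limma adjusted p = 0.049), were higher. One kept probe of ELK4 gave -0.12. Of these 3 calls, those of MRTFB and ELK4 ended in 5 and 8 of 9 fits without 1 array, and that of RPS6KA3 in 3. Without doxycycline replicate 2 the counts were 1 higher and 1 lower against control, and 1 higher against doxycycline.

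Of 22 textbook targets of AP-1 16 were measured, and 6 were higher and none lower under doxycycline, with a list median of 0.50. In recovery against control 10 were higher and 1 lower (median 0.79), and against doxycycline 6 were higher and 1 lower (median 0.42). Without doxycycline replicate 2 the counts were 7 higher and 0 lower under doxycycline. They were 11 and 1 in recovery against control, and 8 and 1 in recovery against doxycycline. MMP13, a collagenase of bone, was not detected in control. It passed the detection filter only through doxycycline and recovery arrays, where it is high. Its calls against control are in the counts above but carry no weight of their own. The fitted difference of MMP13 from control was 1.07 ± 0.18 under doxycycline (limma adjusted p = 0.014) and 3.49 ± 0.18 in recovery (limma adjusted p = 1.09e-07). As bounds, it was at least 1.6-fold higher under doxycycline and at least 8.56-fold higher in recovery. CCND1, cyclin D1, was 1.32 ± 0.21 above control under doxycycline (limma adjusted p = 0.011) and 3.55 ± 0.21 in recovery (limma adjusted p = 3.79e-07). The cytokine gene IL6 was 1.23 ± 0.18 (limma adjusted p = 0.00671) and 2.73 ± 0.18 (limma adjusted p = 1.07e-06) above control, and CD44, the hyaluronan receptor, 0.97 ± 0.17 above it under doxycycline (limma adjusted p = 0.019). MT2A, a metallothionein, was 1.93 ± 0.16 above control in recovery (limma adjusted p = 1.04e-05). The gene lower in both recovery comparisons was the chemokine gene CCL2, at -0.47 ± 0.13 against control (limma adjusted p = 0.031) and -1.06 ± 0.13 against doxycycline (limma adjusted p = 0.00036). Every doxycycline array of CCL2 lay above every control, at 0.59 ± 0.13, which was not called (limma adjusted p = 0.052). Without doxycycline replicate 2 that difference was called, at 0.63 ± 0.13 (limma adjusted p = 0.0497). Under doxycycline the calls of CCND1, IL6, MMP13 and CD44 ended without 2, 1, 3 and 4 of the 9 arrays, left out in turn, among them control replicate 2 each time. The other genes called there were IL11 (0.76 ± 0.15, limma adjusted p = 0.030) and PLAU, urokinase (0.93 ± 0.20, limma adjusted p = 0.047), whose calls ended in 6 and 7 of 9 such fits. The call of CCL2 against control ended without any control or recovery array. Several of these genes also respond to interferon or NF-kB, and how far AP-1 accounts for them was not tested.

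Of 13 stress factors and targets linked to ATF3, 12 were measured, and none was called under doxycycline. In recovery against control 5 were higher and none lower (median 0.31): DDIT3, the stress factor CHOP (1.29 ± 0.13, limma adjusted p = 3.77e-05), CEBPB (0.97 ± 0.12, limma adjusted p = 0.000235), the chaperones DNAJB9 (1.01 ± 0.14, limma adjusted p = 0.000567) and HSPA5 (0.89 ± 0.21, limma adjusted p = 0.014), and the phosphatase subunit PPP1R15A (0.54 ± 0.13, limma adjusted p = 0.015). The calls of HSPA5 and PPP1R15A ended in 2 and 4 of 9 fits without 1 array. DDIT3, CEBPB and DNAJB9 were also higher than in doxycycline, by 1.00 ± 0.13, 0.87 ± 0.12 and 0.65 ± 0.14 (limma adjusted p = 0.000461, 0.000766 and 0.012). Of 8 targets linked to KLF2, KLF4 or KLF6 in other cells 5 were measured. CDKN1A, the cyclin-dependent kinase inhibitor p21, was 1.21 ± 0.16 above control in recovery (limma adjusted p = 0.000359) and TXNIP, an inhibitor of thioredoxin, 0.82 ± 0.14 (limma adjusted p = 0.00213). None of the 5 was lower, and none was called under doxycycline. Without doxycycline replicate 2 the counts in recovery against control were 6 higher for the stress list, and 2 higher for the KLF list.

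**Figure D4:**
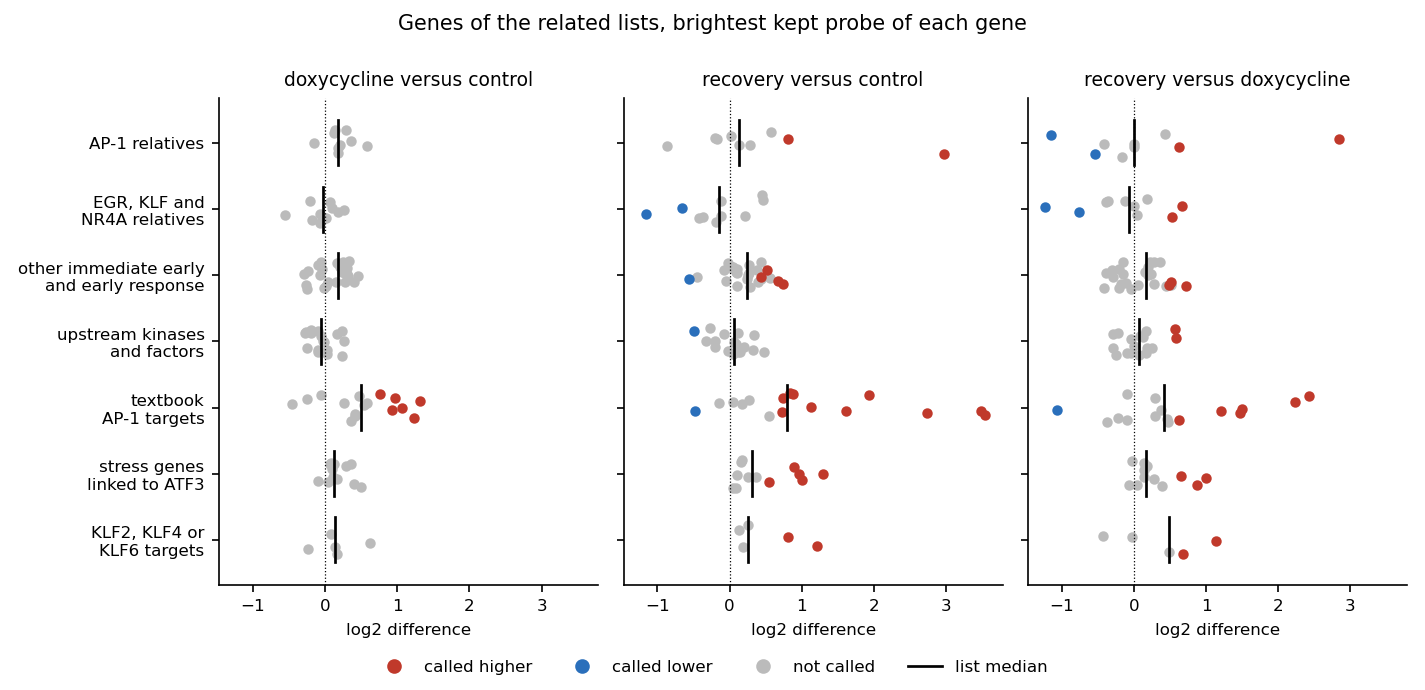
Log2 difference of every measured gene in the 7 lists, by its brightest kept probe, in the 3 comparisons. Points are genes, coloured where called, and the bar is the list median, which for textbook AP-1 targets is 0.50, 0.79 and 0.42. The lists were chosen with earlier results of these data known.

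CD68, which codes for a lysosomal membrane protein used as a macrophage marker, was higher as well, by 0.91 ± 0.14 under doxycycline (limma adjusted p = 0.00796) and 2.49 ± 0.14 in recovery (limma adjusted p = 2.12e-07). The first of these calls ended without control replicate 2 or 3, and the other kept probe of CD68 gave 0.59 and 1.015. The mean level over the 6 haematopoietic markers with a probe ran from 5.71 to 5.77 in control, 5.89 to 6.12 in doxycycline and 6.18 to 6.27 in recovery, while the defining markers PTPRC, CD3E and LAPTM5 were detected on no array. CD14 was detected on all 9 arrays, at a mean level of 6.03 in control, 6.21 in doxycycline and 6.28 in recovery, with every recovery array above every control and no called difference (0.25 ± 0.18, limma adjusted p = 0.41). The part of other cell types in the results was not tested. Of 5 epithelial markers EPCAM was detected on all 9 arrays, at a mean level of 10.52 in control, 10.89 in doxycycline and 10.39 in recovery. CLDN4 was detected on some, and CDH1, KRT5 and KRT14 on none. Of 4 endothelial markers VWF was detected on all 9, at 7.18, 7.82 and 7.30, and PECAM1, CDH5 and KDR on none. No difference of EPCAM, CLDN4 or VWF was called in the fit of all 9 arrays, and CLDN4 was called lower in recovery than in control with doxycycline replicate 2 left out. The smallest limma adjusted p among them was 0.060, for VWF in recovery against doxycycline (-0.52 ± 0.17).

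The genes whose pattern was most like that of each called member were found by Pearson correlation over the 9 arrays, as a description in which the 3 groups set most of each pattern. FOS was closest to ADAMTS5, an aggrecan-degrading protease (r = 0.99), which differed from control by -2.18 in recovery and -0.16 under doxycycline, and to the Mediator subunit MED14 (r = 0.99). KLF2 was closest to the chromatin protein HMGB3 (r = 0.99, -1.49 in recovery and -0.16 under doxycycline) and to PRADC1 (r = 0.99). KLF4 was closest to EMC7, of the membrane protein insertion complex (r = 0.99, 0.72 in recovery and 0.30 under doxycycline), and to the butyrophilin BTN3A2 (r = 0.99, 1.69 and 0.82). NR4A2 was closest to ZNF761 (r = 0.99) and to the Notch ligand DLL1 (r = 0.99, 2.68 in recovery and 0.63 under doxycycline). JUNB was closest to the metallothionein MT1F (r = 0.99, 1.07 and 0.35) and to NINJ1 (r = 0.99, 1.14 and 0.31), and FOSL1 to the hexokinase HK2 (r = 0.98, 0.63 and 0.33) and to the monoglyceride lipase MGLL (r = 0.97, 1.16 and 0.66).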

How the data were processed

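RNA from 9 SaOS2 samples in 3 groups of 3 was read on single-colour Illumina bead arrays. The intensity values are averaged probe signals on the linear scale, deposited by the authors without normalization between arrays, and 29.2% to 32.5% of them per array are below 0, which fits values with a background already taken off. The program that exported them was not stated. Per the file headers, each signal has its own detection p-value. Columns carry a letter for the group and a number for the replicate. Each had a rank correlation of 1 with the column of the same sample in a second deposited table of the authors' processed intensity values, and at most 0.962 with any other.

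Signals were background corrected with normexp in limma 3.58.1 (R 4.3.3) from the detection p-values, with an offset of 16, put on the log2 scale and then quantile normalized. Of 47322 probes 22039 were kept, those detected (p under 0.05) on 3 arrays or more. Group means were compared by lmFit and eBayes on all 9 arrays (6 residual degrees of freedom, prior 5.77), with Benjamini-Hochberg adjustment over all kept probes. The fit was also tested on simulated data. Gene names came from the probe annotation, with 30112 probes that had 1 symbol, 8 several and 17202 none. A gene was read by its brightest kept probe in the lists. The members and lists were chosen with earlier results of these data known. All members are named, then up to 4 called genes with the smallest p per list and comparison, and the 2 genes most correlated with each called member. DUSP1, PPP1R15A, IL11, PLAU and CCL2 fall outside this rule and were named after their values were seen. Where a group had no detected value, the fold is taken against each array's lowest signal among detected probes and is a bound. Motifs were searched with Python 3.11.15. The number of arrays limits the precision.

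Replicate numbers are shared by the groups. Deviations from the group means correlated between -0.089 and 0.092 in the 9 same-numbered pairs of arrays, and between -0.063 and 0.067 in the other pairs. The same-numbered pairs of control with recovery were at 0.092, 0.052 and 0.068, and those with a doxycycline array were all negative. These values do not settle whether the numbers pair the samples, and the main fit used no pairing. Alternatives changed the offset, background correction, normalization, filter, source of the values, probes per gene, variance model, block, groups in the fit, size of the change and each array in turn. Array weights were estimated gene by gene.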

Additional observations from a re-analysis of the deposited data

How the results depend on the processing

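In recovery against control 8 member probes were called, and 8 to 9 when 1 array was left out. Array weights called 10, with EGR1 and ATF3 added, only the compared groups 9, with ATF3 added, and a log2 difference of at least 1 left 6. In recovery against doxycycline 7 were called, and 7 to 8 when 1 array was left out. Array weights called 9, with FOSL1 and ATF3 added, and a log2 difference of at least 1 left 3. The brightest probe per gene gave 6 and 5 of the 10 genes in these comparisons, against 2353 and 2254 of all 12245 genes tested. In doxycycline against control 1 member probe was called, 0 to 2 when 1 array was left out. There the count was 0 with no background correction, with median scaling, with the authors' processed values, with only the compared groups fitted and with a log2 difference of at least 1. It was 2 with an offset of 50, with either stricter detection filter and with a trended robust prior, and 4 with array weights, where FOSL1 and JUNB joined both KLF4 probes. Array weights gave doxycycline replicate 3 a weight of 5.17 and replicate 2 a weight of 0.17. With these weights many more of all 22039 probes were called too. The counts were 5189 in doxycycline against control, 6407 in recovery against control and 7460 in recovery against doxycycline.

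Some differences that were not called changed sign. JUN in doxycycline against control was 0.0468 with cyclic loess and -0.0583 to 0.0066 with 1 array left out, and in recovery against doxycycline 0.0161 with array weights and -0.0649 to 0.0004 with 1 array left out. EGR1 in doxycycline against control was -0.0129 with median scaling and -0.126 to 0.229 with 1 array left out. KLF6 in recovery against doxycycline was -0.0731 with median scaling, -0.0059 with cyclic loess and -0.0881 to 0.142 with 1 array left out. ATF3 in that comparison was -0.0264 to 0.252 with 1 array left out. No called difference changed sign in the alternatives run for it, which were 24, or 22 for ILMN_1779857 (KLF4) and ILMN_2339955 (NR4A2), which are not the probes used with 1 value per gene.

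The replicate block, with the number of the labels as a term, called 1, 8 and 7 member probes in the 3 comparisons. Under doxycycline it moved the KLF4 call from ILMN_1779857 to ILMN_2137789. It called 220 of all probes for doxycycline against control where 310 were called without it. Over all probes, leaving out 1 array moved that 310 to between 73 (without control replicate 2) and 3940 (without doxycycline replicate 1), and array weights moved it to 5189. It was 606 with an offset of 50, 601 with a trended robust prior, 156 with no detection filter, 121 with a log2 difference of at least 1 and 100 with only the compared groups. In recovery against control the split of 1650 higher and 1672 lower became 1045 and 1423 with median scaling. The count of 3322 became 1690 without recovery replicate 2, 5628 without doxycycline replicate 2, 5775 with only the compared groups, 6407 with array weights and 747 with a log2 difference of at least 1. In recovery against doxycycline the count of 2791 became 1188 without recovery replicate 2, 4419 without doxycycline replicate 1, 1684 with only the compared groups, 7460 with array weights and 555 with a log2 difference of at least 1. List counts without doxycycline replicate 2 were an alternative chosen after seeing the data. Causes of these changes were not tested.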
